A study of Mus musculus with 7 samples.

Results

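The axoneme genes described here are the 65 protein-coding genes of the testis expression table whose names begin with Dnah, Dnaic, Dnal, Dnaaf, Cfap, Drc, Rsph or Tekt, out of 14938 protein-coding genes and 19719 genes listed in all. They were chosen by name, with earlier results of these data known, and placed into 11 groups, called structures here. Most groups follow known function in the sperm tail. A group of other Cfap genes and a dynein light chain of no assigned arm are not placed in that way. The study asked how loss of *Rlim*, an X-linked gene for a ubiquitin ligase, affects male reproduction, and sequenced RNA of total testis from C57BL/6 males at 8 weeks of age. The control group was fl/Y (n = 3, called WT in the labels), males that carry the floxed *Rlim* allele without Cre and are littermates of the other group. The knockout group was cKO/Y Sox2-Cre (n = 4, genotype Rlim-KO in the labels), in which Sox2-Cre deletes the floxed allele systemically, in somatic tissues as well as in the germline. The labels number the libraries of a group as repeats and the study calls them biological replicates.

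The axoneme is the motor of the sperm tail, a ring of doublet microtubules around a central pair of microtubules. Outer and inner dynein arms on each doublet pull on the next one, radial spokes pass signals between the central pair and the arms, and the nexin-dynein regulatory complex links neighbouring doublets. Tektins and other proteins run along or inside the doublet wall, and dynein arm assembly factors fold the arms in the cytoplasm before they are carried into the tail. In testis, these genes are switched on during meiosis and in round spermatids, and the tail is built in spermatids.

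Values are in the authors' deposited unit, CPM, which sets reads relative to a size of the library. The CPM of listed genes summed to 866540 in the lowest library and 1219900 in the highest, so this size was not the plain number of reads. The libraries held 2822168 to 8633399 reads in listed genes, so that 3 reads, the limit that a count of 0 allows, were worth 0.301 to 0.945 CPM (counting error only). Every axoneme gene was above this limit in every library, with a lowest value of 2.83 CPM (14 reads, *Dnaaf2*) and a highest of 3257 CPM (*Dnah8*). The labels give 2 batches, with replicates 1 and 2 of each genotype in batch 2 and the other 3 libraries in batch 1. *Rlim* RNA was at 99.5, 70.7 and 61.5 CPM in fl/Y and at 32.6, 35.7, 21.7 and 20.7 CPM in the knockout, so the groups did not overlap (log2 fold change -1.38, SE 0.16, adjusted p = 0.0087, limma). The adjusted p was 0.154 without fl/Y replicate 1, 0.634 without fl/Y replicate 3 and 0.921 without the batch in the model. All 13 meiotic, 12 round spermatid and 12 elongating spermatid markers were listed. Of 10 markers of the neighbouring epididymis and efferent duct, 0 were listed in the table.

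Levels were compared between genes as CPM per kb of annotated exon in fl/Y, because long genes collect more reads. The axoneme genes were abundant: their median was 22.8 CPM per kb against 3.43 CPM per kb over listed protein-coding genes, 60 of 65 were above the median protein-coding gene, and 27 of 65 were in the top 10%. Over all structures, *Cfap206*, which encodes a protein at the base of radial spokes, was highest at 311 ± 36.2 CPM per kb (SD, n = 3). It was followed by *Rsph1*, a radial spoke head gene, at 195 ± 50.9 CPM per kb and *Tekt1*, a tektin gene, at 150 ± 35.2 CPM per kb, whose SD ranges overlapped. At the other end were *Dnah5* at 0.553 ± 0.0707, *Dnah9* at 1.08 ± 0.133, *Dnaaf2* at 1.24 ± 0.372 and *Dnah11* at 1.87 ± 0.658 CPM per kb. The SD ranges of *Dnah9*, *Dnaaf2* and *Dnah11* overlapped with each other, while that of *Dnah5* was below all of them.

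**Figure D1:**
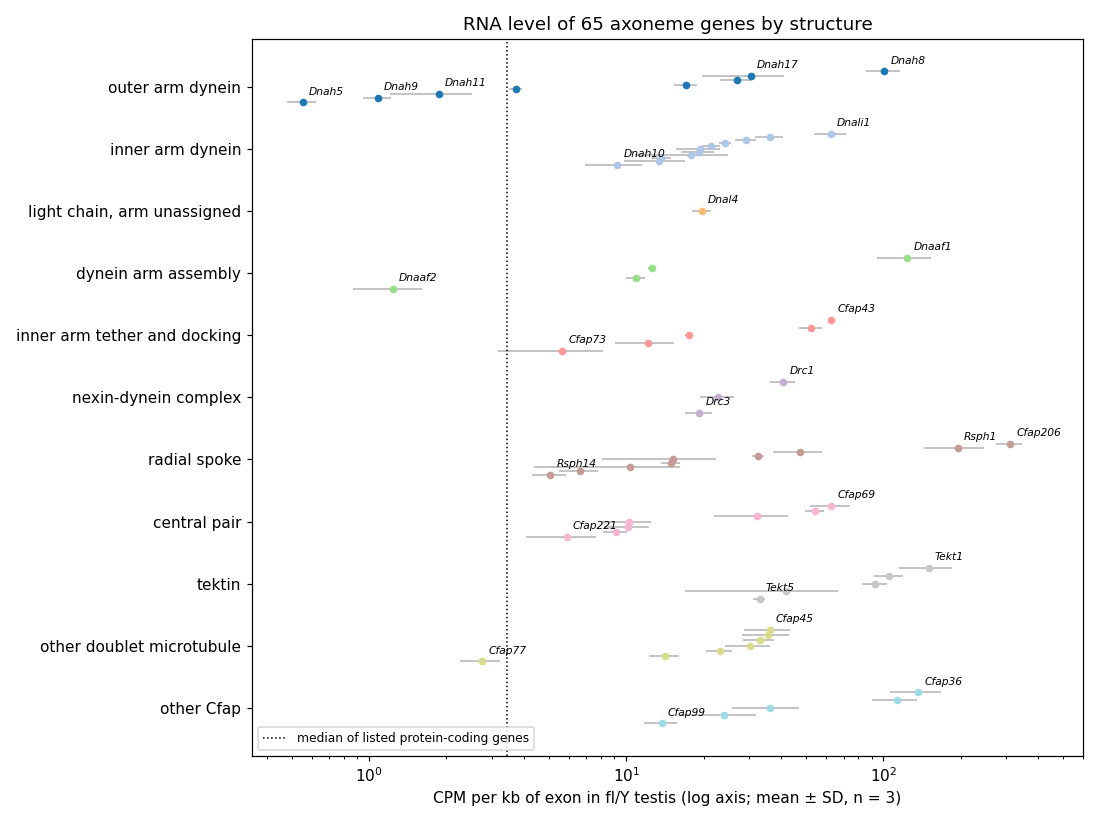
The level of each axoneme gene in fl/Y testis is plotted as CPM per kb of exon on a log axis, with 1 row per structure. Points are means and bars are SD of 3 libraries, and the dotted line is the median of listed protein-coding genes (3.43). The radial spoke row holds the highest gene (*Cfap206*, 311) and the outer arm row the lowest (*Dnah5*, 0.553).

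The outer arm row had the widest range, and its heavy chains, the large ATP-splitting motor subunits, lay at separate levels. *Dnah8*, a heavy chain gene of the sperm tail (ENSMUSG00000033826, chr17:30624354-30875264 of GRCm38), was at 101 ± 14.9 CPM per kb. *Dnah17*, its partner in sperm outer arms, was at 30.5 ± 10.7 CPM per kb. The heavy chain genes best known from airway cilia, *Dnah5*, *Dnah9* and *Dnah11*, were all under 2 CPM per kb, below the median protein-coding gene. The intermediate chain genes, whose proteins form the base of the arm, were at 27.0 (*Dnaic1*) and 17.1 (*Dnaic2*) CPM per kb, and the light chain gene *Dnal1* was at 3.72.

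Inner arm genes were more even, with all 11 between 9.24 (*Dnah10*) and 62.6 CPM per kb (*Dnali1*, a light chain gene). The next highest was the heavy chain gene *Dnah12* at 36.1 CPM per kb. *Dnah7a*, *Dnah7b* and *Dnah7c* are near copies and share 50.3%, 37.6% and 58.0% of their 35-base words with other transcripts, so that their separate values (24.2, 13.7 and 21.4 CPM per kb) are uncertain. The same holds for *Rsph3a* and *Rsph3b*, at 62.0% and 75.7%, and for *Dnaaf2*, at 70.4%. In the other structures, the highest genes were *Dnaaf1* (an assembly factor, 124 CPM per kb), *Cfap43* (a dynein tether, 62.8), *Drc1* (a nexin-dynein regulatory complex subunit, 40.9), *Cfap69* (central pair, 62.8), *Cfap45* (a protein inside the doublet, 36.1) and *Cfap36* (137), with *Dnal4*, a light chain gene of no assigned arm, at 19.7. The lowest of the same structures were *Dnaaf2* (1.24 CPM per kb), *Cfap73* (5.63), *Drc3* (19.2), *Cfap221* (5.87), *Cfap77* (2.75) and *Cfap99* (13.7). Among radial spoke genes, *Rsph14* was lowest at 5.07 CPM per kb. Among tektins, the range was 33.0 (*Tekt5*) to 150 CPM per kb (*Tekt1*), with *Tekt4* at 105 ± 13.4, *Tekt3* at 93.1 ± 10.5 and *Tekt2* at 41.7 ± 24.7. With the longest transcript as the length, the highest gene changed in 1 of 11 structures, from *Cfap45* to *Cfap126* among the doublet proteins. Other ranks also depended on the length. With the longest transcript, *Dnah7a*, *Dnah7b* and *Dnah7c* were at 25.2, 22.2 and 22.1 CPM per kb, so *Dnah7b* no longer lay apart. *Cfap36* was then at 225 CPM per kb, level with *Rsph1* (225) and above *Tekt1* (168). *Drc7* (24.0) was then below *Drc3* (35.7).

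Regulatory factor X (RFX) proteins bind the X-box, a DNA motif found near many ciliary genes. RefSeq promoters (250 bases before to 50 after the start, GRCm38.p6) were matched for 55 of 65 genes. The X-box, searched on both strands as GTTGCC, then 3 bases of any kind, then GNAAC, was found in 3 of 55 genes (5.46%). Of 27025 genes with a RefSeq promoter, a set not limited to genes listed here, 0.503% had it. Its left arm alone, GTTGCC, which the full motif contains, was in 19 of 55 (34.5%) against 14.1%. The 19 include the near copies *Dnah7a*, *Dnah7b* and *Dnah7c*. CCAAT was in 45.5% against 41.1% and the cAMP response element TGACGTCA in 1.82% against 2.03%. The shorter TGACGT, which that element contains, was in 3 of 55 (5.46%) against 8.37%. The 3 promoter stretches with the full X-box are shown because they carry the motif that was more frequent here than over all genes with a promoter. Each is written along the strand of its gene, with the motif in capitals, which reads as the searched letters on the opposite strand. The motif ended 14 bases before the start in *Cfap44* (chr16:44394757-44394800, plus strand) and 4 bases before it in *Dnaaf2* (chr12:69198418-69198461, minus strand), and began at the start in *Tekt4* (chr17:25471575-25471618, plus strand).
Cfap44: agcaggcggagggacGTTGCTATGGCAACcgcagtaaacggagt
Dnaaf2: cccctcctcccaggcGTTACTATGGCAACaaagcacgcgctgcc
Tekt4: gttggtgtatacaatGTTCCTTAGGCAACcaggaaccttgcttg
These are matches of letters only, and binding was not measured.

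The comparison of cKO/Y Sox2-Cre with fl/Y asked whether RNA of the axoneme genes differed in testes that lack *Rlim*. No axoneme gene passed an adjusted p of 0.05 (limma on log2(CPM + 0.5) with the batch as a covariate), 0 of 65 against 0.00515% of all 19400 genes tested, where the smallest adjusted p of an axoneme gene was 1.00. At an unadjusted p under 0.05, 1 of 65 was lower, *Dnah11*, where 1.37% of all genes were, and 1 of 65 was higher, *Cfap73*, where 1.22% were. Both together are 2 of 65, against 2.58% of all genes. In the count tests on recovered reads, 0 passed an adjusted p and *Dnah11* alone had an unadjusted p under 0.05, where 2.21% of all genes did in edgeR and 0.938% in DESeq2. Over the structures, 34 genes had a log2 fold change below 0 and 31 above, where 51.2% of all genes were below. The median log2 fold change was -0.01, as over all genes (-0.01), and was 0.02 within batch 2 and -0.01 within batch 1. The sign was the same within both batches for 35 of 65, and for 48.4% of all genes. In no axoneme gene did the genotypes separate, with 0 lower and 0 higher without overlap, against 1.59% and 1.34% of all genes. In bulk tissue, fewer cells of a type and less RNA per cell cannot be told apart.

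The intervals set how large a difference could have been missed. The 95% interval of the log2 fold change lay within 2-fold in both directions for 62 of 65 genes (77% of all genes), and within 1.5-fold for 58 of 65 (38.9% of all genes). The exceptions at 2-fold were *Dnah11*, *Cfap73* and *Dnaaf2*. The median SE was 0.16, against 0.25 over all genes. These intervals and SE are those of the main limma fit, which uses a variance trend, and they depend on it. Without the trend, *Rlim* had an adjusted p of 0.815 (limma) at the same log2 fold change of -1.38. A doubling of any of these 62 genes lies outside its interval.

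**Figure D2:**
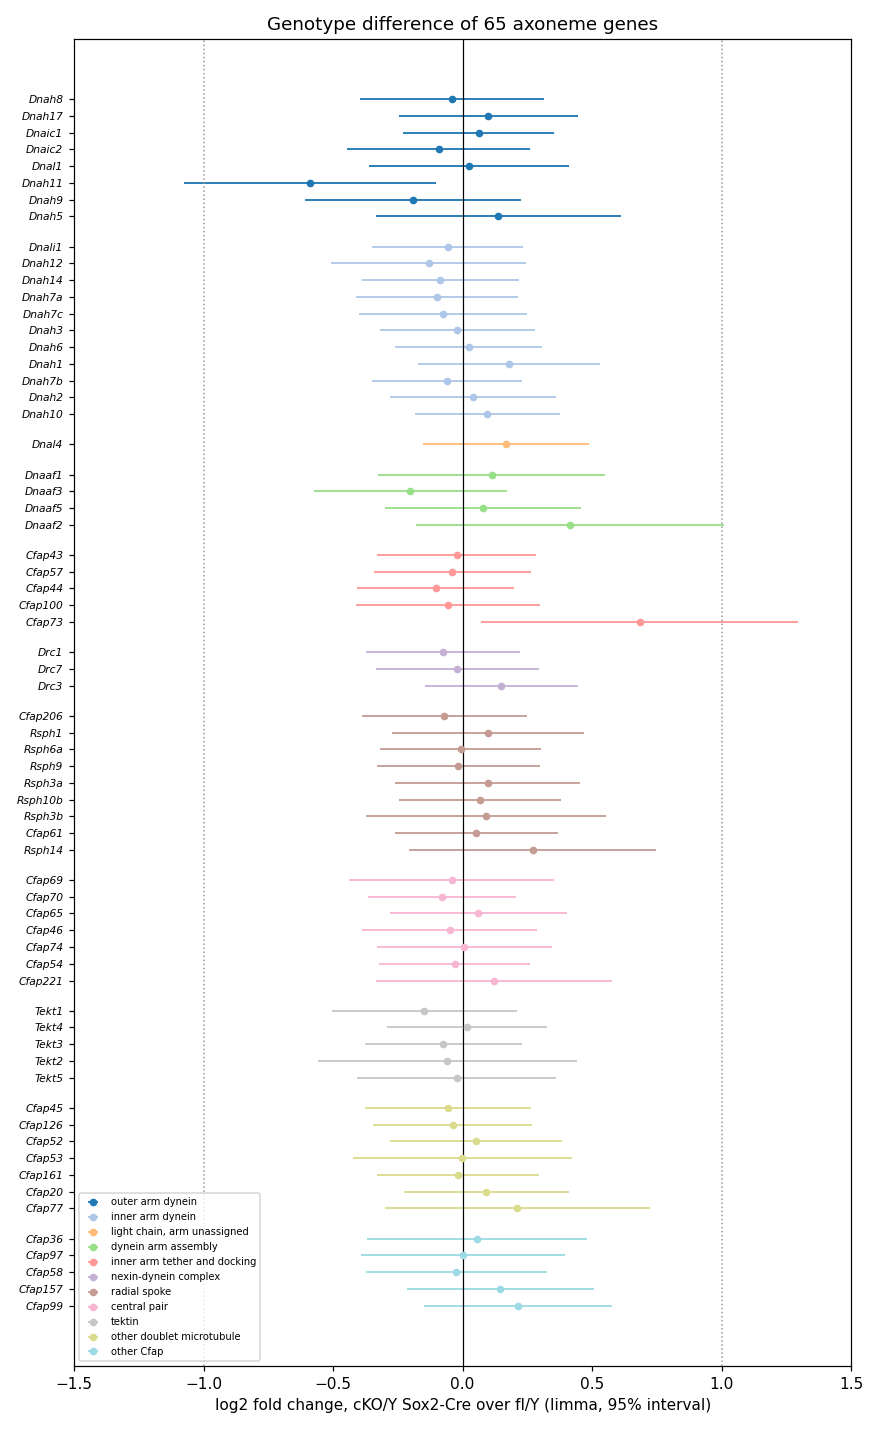
The log2 fold change of cKO/Y Sox2-Cre over fl/Y is plotted for each of the 65 axoneme genes, in blocks by structure, with the 95% interval from limma. Dotted lines mark 2-fold, and the intervals of *Dnah11*, *Cfap73* and *Dnaaf2* cross one of them, while those of the other 62 genes lie inside.

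In the outer arm, *Dnah8* was at 2458, 2487 and 3164 CPM in fl/Y and at 2454, 2232, 3257 and 3141 CPM in the knockout. *Dnah17* was at 368, 419 and 688 CPM in fl/Y and at 511, 333, 780 and 737 CPM in the knockout. In both genes the groups overlapped, and the highest values of each genotype were those of batch 1. The log2 fold change was -0.04 (95% interval -0.40 to 0.31) for *Dnah8* and 0.10 (-0.25 to 0.45) for *Dnah17*.

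*Dnah11* (ENSMUSG00000018581, chr12:117877982-118199043, minus strand), a heavy chain gene needed in airway and nodal cilia, was at 16.0, 32.3 and 32.6 CPM in fl/Y and at 15.2, 18.9, 17.3 and 18.4 CPM in the knockout. The knockout libraries were close together, and 1 fl/Y library lay among them, so the groups overlapped. The log2 fold change was -0.59 (SE 0.23, 95% interval -1.08 to -0.10, unadjusted p = 0.0208, adjusted p = 1.00, limma). The libraries of batch 2 gave -0.41 and those of batch 1 gave -0.85. The unadjusted p in limma was 0.129 when fl/Y replicate 2 was left out and 0.204 when fl/Y replicate 3 was. It was 6.8e-04 when fl/Y replicate 1 was left out (log2 fold change -0.88), and from 0.00666 to 0.0453 when 1 of the knockout libraries was. Its exons overlap those of *Cdca7l* on the opposite strand over 642 bases, and *Cdca7l*, named after its values were seen, was at a log2 fold change of 0.62 (unadjusted p = 0.0449, limma). *Dnah9* was at 14.9, 18.2 and 18.8 CPM in fl/Y and at 16.7, 11.8, 18.3 and 15.8 CPM in the knockout (log2 fold change -0.19, unadjusted p = 0.345, limma). *Dnah5* was at 7.81, 9.89 and 8.22 CPM in fl/Y and at 8.06, 11.4, 8.82 and 9.84 CPM in the knockout, with overlapping groups and a log2 fold change of 0.14.

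Inner arm genes lay between log2 fold changes of -0.13 and 0.18, and none of the 11 had an unadjusted p under 0.05. The highest was *Dnah1*, a heavy chain gene whose loss in people gives short or absent sperm tails, at 146, 223 and 328 CPM in fl/Y and 238, 181, 375 and 353 CPM in the knockout. Its values spread more than 2-fold within each genotype, and the groups overlapped (log2 fold change 0.18, 95% interval -0.17 to 0.53). *Dnah12*, the lowest, was at -0.13.

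*Cfap73* (ENSMUSG00000094282, chr5:120628335-120634235, minus strand), from the complex that docks inner arms, was at 7.81, 4.04 and 3.71 CPM in fl/Y and at 7.13, 6.78, 10.7 and 8.93 CPM in the knockout. The fl/Y library of replicate 1 lay among the knockout libraries, and the other two lay below all of them. The log2 fold change was 0.68 (SE 0.29, 95% interval 0.07 to 1.29, unadjusted p = 0.0312, adjusted p = 1.00, limma). It was 0.28 from batch 2 and 1.29 from batch 1. The unadjusted p in limma was 0.432 without fl/Y replicate 3, 0.102 without fl/Y replicate 2, 0.0809 without cKO/Y Sox2-Cre replicate 3 and 0.0609 without cKO/Y Sox2-Cre replicate 4. Leaving out fl/Y replicate 1 gave 0.00311 (log2 fold change 1.00), and leaving out replicate 1 or 2 of the knockout gave 0.0269 and 0.0174. The count tests gave 0.0644 (edgeR) and 0.0824 (DESeq2), both unadjusted. Its partner in the docking complex, *Cfap100*, had a log2 fold change of -0.06, and the tether genes *Cfap43* and *Cfap44*, known from sperm tail disease, were at -0.02 and -0.10.

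Of the assembly factors, *Dnaaf2* was at 4.46, 2.83 and 5.30 CPM in fl/Y and at 5.27, 3.19, 9.13 and 9.54 CPM in the knockout. Its groups overlapped, and the interval ran from -0.18 to 1.01 (log2 fold change 0.41, unadjusted p = 0.158, limma). *Dnaaf3* was at -0.20 (unadjusted p = 0.266, limma) and *Dnaaf1* at 0.11. *Drc1*, *Drc7* and *Drc3*, of the nexin-dynein regulatory complex, were at -0.07, -0.02 and 0.15. In the group of other Cfap genes, *Cfap99* was at 0.21 (unadjusted p = 0.230, limma).

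Among radial spoke genes, *Rsph1* was at 228, 227 and 348 CPM in fl/Y and at 337, 192, 352 and 349 CPM in the knockout. *Cfap206* was at 811, 837 and 670 CPM in fl/Y and at 673, 856, 623 and 722 CPM in the knockout. Neither gene separated the genotypes, at log2 fold changes of 0.10 (95% interval -0.27 to 0.47) and -0.07 (-0.39 to 0.25). All 9 spoke genes lay between -0.07 and 0.27. Central pair genes lay between -0.08 and 0.12, with *Cfap69* at -0.04 and *Cfap65* at 0.06, both genes known from sperm tail disease, and other doublet proteins lay between -0.06 and 0.21.

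The 5 tektins, filament proteins of the doublet wall, lay between -0.15 (*Tekt1*) and 0.02 (*Tekt4*). *Tekt1* was at 178, 278 and 275 CPM in fl/Y and at 187, 224, 219 and 265 CPM in the knockout, with overlapping groups (95% interval -0.50 to 0.21). *Tekt3*, *Tekt2* and *Tekt5* were at -0.07, -0.06 and -0.02. The summed CPM of tektins was 704 to 820 in fl/Y and 709 to 739 in cKO/Y Sox2-Cre.

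**Figure D3:**
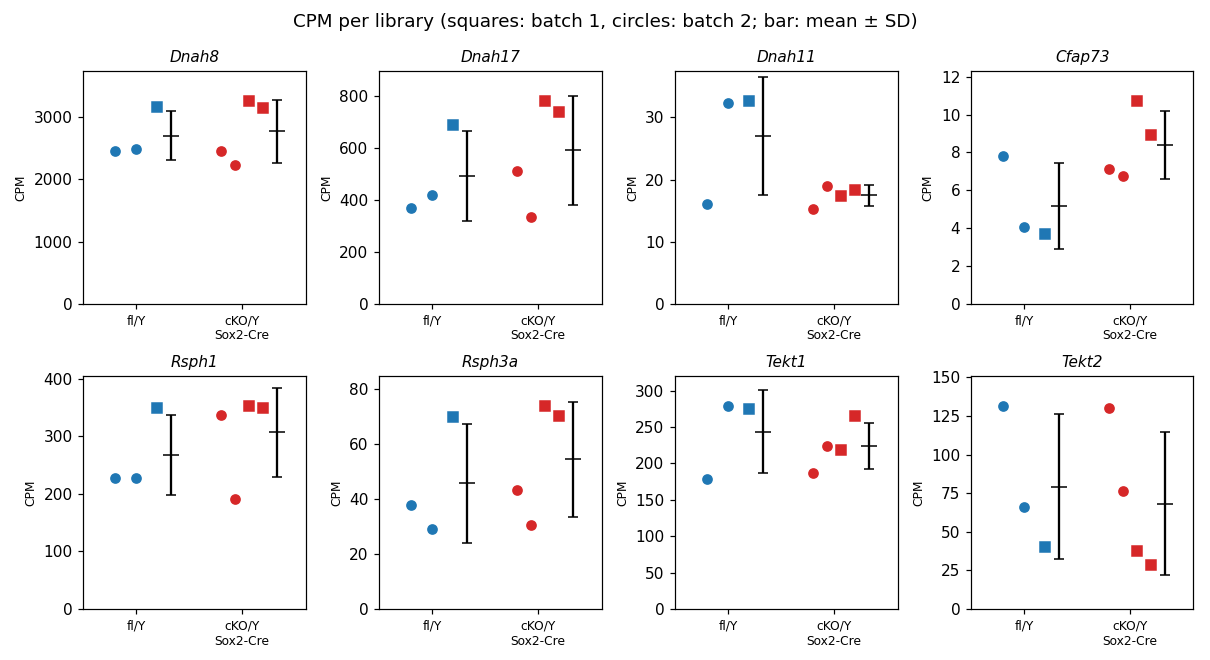
CPM is plotted for 8 axoneme genes in each library on axes that start at 0, where squares are libraries of batch 1, circles those of batch 2, and bars the mean ± SD of each genotype (n = 3 and n = 4). In all 8 genes the genotypes overlap, and for *Dnah8*, *Dnah17*, *Rsph1* and *Rsph3a* all squares lie above all circles, while for *Tekt2* they lie below.

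Other genes of the pathway were read in the same way, from lists that hold no axoneme gene named above. Of 50 other axoneme genes in the table, such as dynein docking and central pair genes without a Cfap name, none passed an adjusted p and none had an unadjusted p under 0.05 (limma); 37 were below 0, where 51.2% of all genes were, with a median log2 fold change of -0.06, and *Ccdc114*, a docking gene, had the smallest p (-0.34, unadjusted p = 0.0649). Of 15 other dynein assembly genes and 24 intraflagellar transport genes, none had an unadjusted p under 0.05, with medians of 0.01 and 0.00. Of 11 transcription factors of ciliary and spermatid genes, 1 had an unadjusted p under 0.05, *Rfx1*, at 22.3, 27.9 and 75.3 CPM in fl/Y and 51.5, 32.7, 84.4 and 78.0 CPM in the knockout (log2 fold change 0.47, unadjusted p = 0.0273, adjusted p = 1.00, limma). Its groups overlapped. *Foxj1*, a master factor of motile cilia, was at -0.05, *Rfx2*, an RFX factor of spermatids, at 0.18, *Crem* at -0.08 and *Mybl1* at -0.04.

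More axoneme genes were called between the batches than between the genotypes. A contrast of batch 1 with batch 2, with the genotype in the model, was added after it was seen that libraries of a batch resembled each other, so it describes these 7 libraries and answers no question of the study. In it, 12 of 65 axoneme genes (18.5%) passed an adjusted p of 0.05 in limma, against 7.06% of all genes, with 11 higher in batch 1 (3.6% of all genes) and 1 lower (3.46%). By edgeR and DESeq2 on recovered reads, 11 and 14 of 65 passed, against 7.29% and 8.01% of all genes. Without overlap between the batches, 24 of 65 were higher in batch 1 (12.1% of all genes) and 2 lower, *Tekt2* and *Cfap69* (11.6%). Of the 24, 7 were radial spoke genes, 6 inner arm genes and 4 outer arm genes. The median difference was 0.23 on the log2 scale for axoneme genes and 0.02 over all genes. Related lists, described above for the genotype, differed in this. The median was -0.01 over the 50 other axoneme genes, of which 7 were higher in batch 1 past an adjusted p (limma) and 0 lower. It was -0.07 over the 15 other dynein assembly genes, -0.09 over the 24 intraflagellar transport genes and 0.27 over the 11 transcription factors.

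The genes that differed between batches belonged to several structures. *Dnah17* and *Dnah1*, whose values are given above, were higher in batch 1 by 0.85 (adjusted p = 0.00929) and 0.83 (adjusted p = 0.0109, limma) on the log2 scale. The radial spoke genes *Rsph3a* and *Rsph3b*, near copies, were higher by 1.01 and 1.16 (adjusted p = 0.00484 and 0.00852, limma), and *Rsph6a*, a spoke gene of sperm, by 0.70. *Rsph3a* was at 37.7, 29.3, 43.4 and 30.7 CPM in batch 2 and at 70.0, 73.7 and 70.4 CPM in batch 1, so that the batches did not overlap. The other genes higher in batch 1 were *Cfap65* (0.79), *Cfap46* (0.66), *Dnah10* (0.64), *Dnah2* (0.59), *Dnali1* (0.47) and *Cfap157* (0.81).

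*Tekt2* went the other way. It was at 131, 66.2, 130 and 76.7 CPM in batch 2 and at 40.0, 37.5 and 28.3 CPM in batch 1 (log2 difference -1.44, adjusted p = 0.00436, limma). Within each genotype the batch 1 libraries were lowest. The exons of *Tekt2* overlap those of Gm12945 on the opposite strand over 396 bases, and the strand of the reads was not given in the sources used here. The other 4 tektins differed between batches by 0.03 to 0.26, none past an adjusted p.

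**Figure D4:**
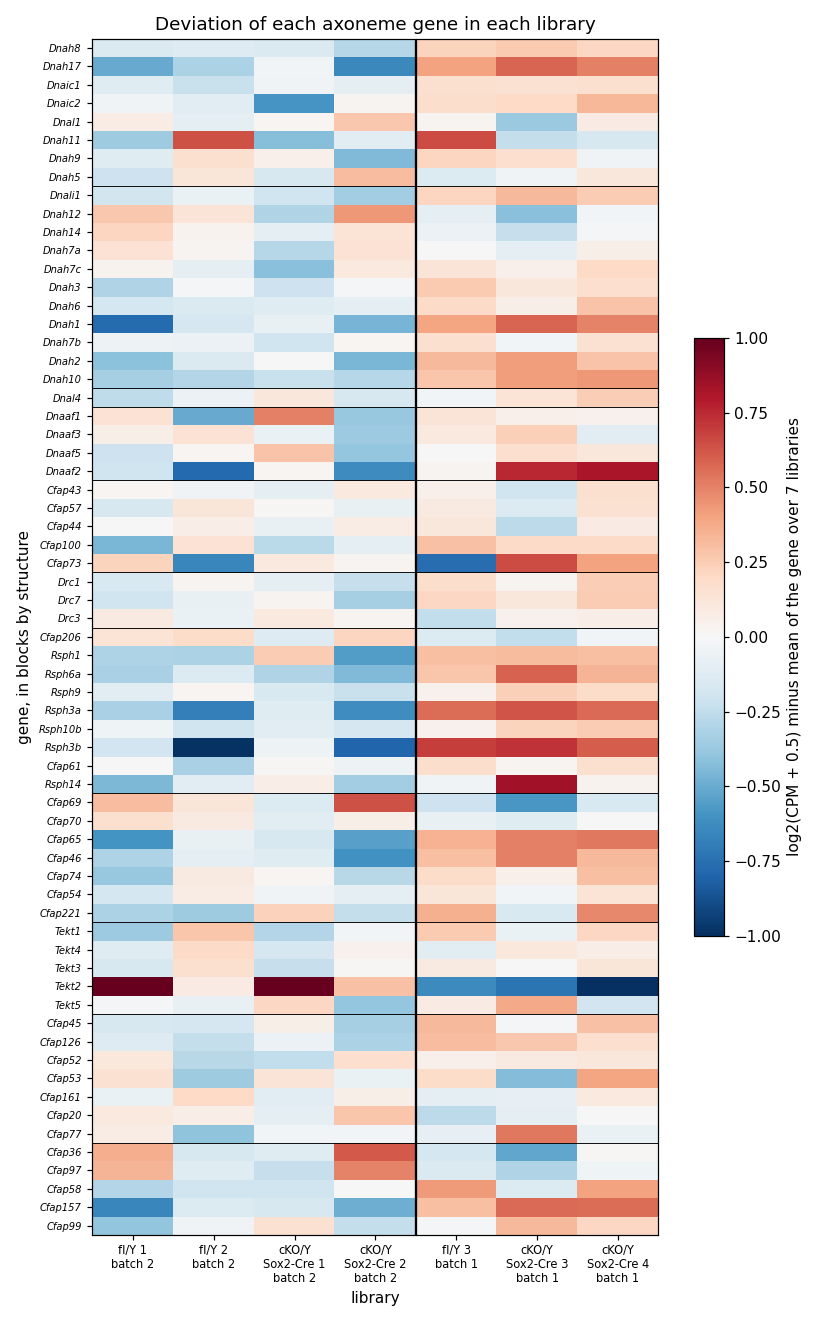
Each row is an axoneme gene, in blocks by structure, and each column is a library, with batch 2 left of the line and batch 1 right of it. Colour is log2(CPM + 0.5) minus the mean of the gene over 7 libraries, from -1 (blue) to 1 (red), and rows of *Dnah17*, *Dnah1*, *Rsph3a* and *Rsph3b* are red only in batch 1, while *Tekt2* is blue there.

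Markers of elongating spermatids moved with the batches. Their summed level was 12966 to 14832 CPM in batch 1 and 9462 to 10810 CPM in batch 2, with a median log2 difference of 0.58. Of these markers, 5 of 12 were higher in batch 1 past an adjusted p (limma), where 3.6% of all genes were. Meiotic spermatocyte markers had a median of -0.33, with 5 of 13 lower in batch 1 past an adjusted p (limma), where 3.46% of all genes were. Their sums overlapped, at 3986 to 4314 CPM in batch 1 and 4011 to 5467 CPM in batch 2. Round spermatid markers had a median of 0.23, as the axoneme genes did, with 0 of 12 past an adjusted p in either direction (limma). Their sums overlapped, at 1543 to 1604 CPM in batch 1 and 1269 to 1710 CPM in batch 2. *Rfx1* and *Rfx2* were also higher in batch 1, by 1.22 and 0.70 (adjusted p = 0.00364 and 0.0281, limma), and *Mybl1* was lower (log2 difference -0.91, adjusted p = 0.0106, limma). Their part in the batch difference of the axoneme genes was not tested. The batch count rested on few libraries: it was 0 of 65 without fl/Y replicate 3, the only fl/Y library of batch 1, 2 without cKO/Y Sox2-Cre replicate 3, 6 without cKO/Y Sox2-Cre replicate 4 and 17 without cKO/Y Sox2-Cre replicate 1. The count over all genes, 1370 with every library, moved in the same fits to 73, 174, 481 and 3030.

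**Figure D5:**
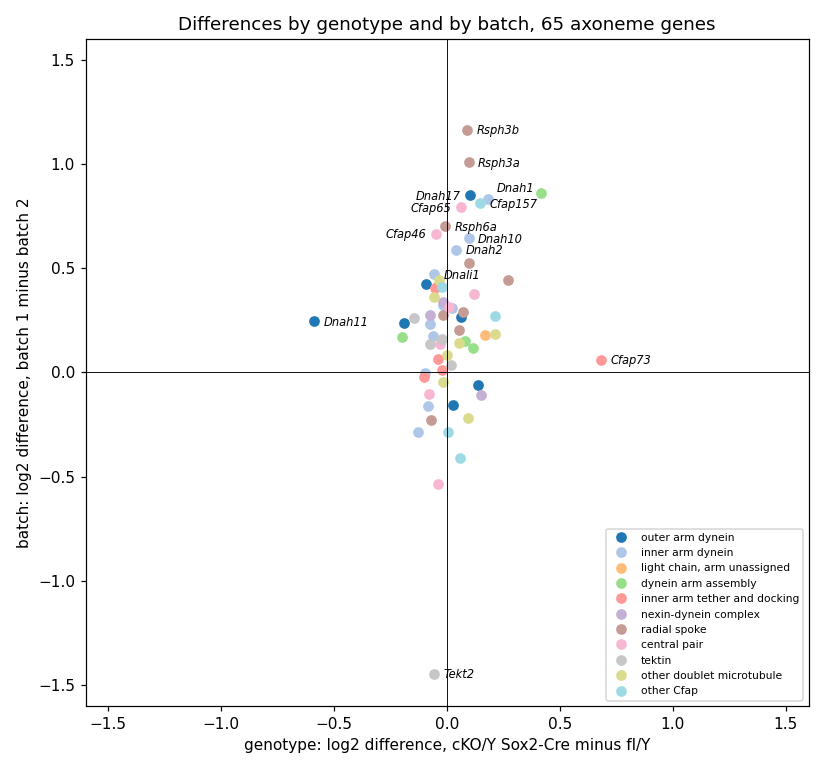
The genotype difference (cKO/Y Sox2-Cre minus fl/Y, horizontal axis) is plotted against the batch difference (batch 1 minus batch 2, vertical axis) for 65 axoneme genes, on log2 scales of equal length, coloured by structure. Named genes are the 12 past an adjusted p between batches and the 2 under an unadjusted p of 0.05 between genotypes, and the points spread further along the batch axis than along the genotype axis.

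Markers of other testis cells did not pass an adjusted p between genotypes in limma. At an unadjusted p under 0.05, 1 of 8 spermatogonial markers tested was lower in cKO/Y Sox2-Cre (*Stra8*), 1 of 13 Sertoli cell markers was lower (*Rhox5*), 2 of 8 Leydig cell markers were lower (*Hsd3b6* and *Star*), and none was higher, where 1.37% of all genes were lower and 1.22% higher. None of 13 meiotic, 12 round spermatid, 12 elongating spermatid, 6 peritubular myoid and 8 macrophage markers was under it. In *Stra8*, *Rhox5*, *Hsd3b6* and *Star* the genotypes overlapped. Of the Leydig cell markers, 3 had a log2 fold change below 0 and 5 above, with a median of 0.03. For Sertoli cell markers it was 7 below and 6 above (median -0.0035), and for spermatogonial markers 5 below and 3 above (median -0.13). The summed level of elongating spermatid markers was 10174 to 13202 CPM in fl/Y and 9462 to 14832 CPM in cKO/Y Sox2-Cre. That of the axoneme genes was 12616 to 14375 CPM in fl/Y and 12330 to 14831 CPM in cKO/Y Sox2-Cre, and both overlapped between genotypes.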

How the data were processed

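RNA-seq of total testis gave 1 table of 7 libraries. Its signal values are CPM that the authors computed and deposited, and each library was scaled by a factor of its own. Summed over all genes tested, they came to 866250 to 969740 CPM in batch 1 and 968080 to 1219600 CPM in batch 2. The submitters' processing notes name GRCm38 and the tools edgeR, featureCounts and HISAT2 2.1.0. The study's methods instead give TopHat for alignment and HTSeq for counting. Values were whole multiples of 1 read in each library (100% of values), and the recovered reads were used for the count tests. Reads outside listed genes were not used here, and all columns were mapped to samples.

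Genes over 1 CPM in at least 3 libraries (19400, all 65 axoneme genes among them) entered a limma fit (version 3.58.1, R 4.3.3, with a variance trend) of log2(CPM + 0.5) on genotype and batch, two-sided, with Benjamini-Hochberg adjustment over all of them and a threshold of 0.05. Fold changes on this scale understate those of low genes. The alternatives included edgeR 4.0.16 and DESeq2 1.42.0 on the recovered reads. The test was tried on simulated data with known differences. The simulated libraries held no batch difference, so that trial cannot show how the fit handles the batches. Exon lengths and shared 35-base words came from GENCODE M21 (GRCm38), and coordinates of 57 of 65 genes equalled those of that release. Motifs were counted in RefSeq promoters with Python 3.11.15. Whether libraries of a group came from separate animals is not in the labels, so p-values measure the spread between these libraries.

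The axoneme genes and the gene lists were chosen with earlier results of these data known. Named genes were those at an unadjusted p under 0.05, the 3 of smallest p in each direction, the 2 highest and the lowest in level of each structure, all outer arm heavy chains and tektins, *Dnah1*, *Cfap43*, *Cfap44*, *Cfap65*, *Cfap69*, *Dnaaf2* and *Rsph1*, up to 2 genes of each other list, and *Foxj1*, *Rfx2*, *Crem* and *Mybl1*. Other genes were named after their values were seen.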

Additional observations from a re-analysis of the deposited data

Results flagged for a closer look

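Among the 4 cKO/Y Sox2-Cre libraries, *Cfap77*, a doublet microtubule gene, was at 7.75, 7.77, 11.7 and 7.53 CPM, so that replicate 3 stood apart with a gap of 0.94 of the range of the group. *Rsph1*, the radial spoke head gene, was at 337, 192, 352 and 349 CPM, so that replicate 2 stood apart from the other 3 with a gap of 0.907 of the range. Both are past Dixon's 95% limit for 4 values, which chance alone passes in about 1 of 20 groups. Of 67 genes and medians of structures tested in this way, 2 passed.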

How the results depend on the processing

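Over 20 alternatives of the genotype fit, none of 760 values of 38 named axoneme genes passed an adjusted p, and 0 of 65 axoneme genes did in any of them, at a smallest adjusted p of 0.169 (*Cfap73* in batch 1 alone). Of the 38 genes, 15 kept the same sign in all 20 and 23 changed it in at least 1. The median log2 fold change of the 65 genes ranged from -0.02 to 0.04. The adjusted p of *Dnah11* ranged from 0.285 to 1.00, that of *Cfap73* from 0.169 to 1.00 and that of *Rlim* from 2.6e-08 to 0.921 (limma, edgeR and DESeq2).

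Replicate numbers correlated at 0.101, 0.066 and 0.392 in their deviations, and not every library correlated best with its own number. The deviations were from genotype means and kept the batch difference, and replicate 3 of each genotype is in another batch than replicates 1 and 2. They therefore cannot decide whether libraries were paired, and replicate numbers were taken as numbers only. With a replicate block in place of the batch, 0 genes of all tested were called, *Rlim* was at -1.35, and axoneme genes under an unadjusted p of 0.05 were 1 lower and 0 higher. Of all genes, 0 were called without the batch term, in batch 2 alone and without the variance trend, and 28 in batch 1 alone, and from 0 to 3 when 1 library was left out. *Rlim* missed the threshold without the batch term (-1.48), in batch 2 alone (-1.29) and without the variance trend (-1.38), and ranged from -1.52 to -1.28 when 1 library was left out. Axoneme genes lower at an unadjusted p under 0.05 were 0 without the batch term, in batch 2 alone and without the variance trend, and 0 to 1 when 1 library was left out. Axoneme genes higher were 0 in batch 2 alone, without the variance trend, in edgeR and in DESeq2, 2 in batch 1 alone, and 0 to 2 when 1 library was left out.

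Between batches, 1370 of all genes and 12 of 65 axoneme genes were called. Of all genes, this became 2068 without the genotype term, 2319 scaled to library totals, 122 without the variance trend, and 73 to 3030 when 1 library was left out. Axoneme genes became 20 scaled to library totals, 0 without the variance trend, and 0 to 17 when 1 library was left out. The cause of these changes was not tested. The batch contrast and its alternatives were chosen after seeing the data. Depth limits *Dnaaf2* and *Cfap73* the most, at 2.83 CPM and 3.71 CPM in their lowest libraries.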
